A study of Mus musculus with 35 samples.

Results

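Dnmt1 overexpression in Tet3-/- cells was measured by RNA-seq in 4 of the 35 samples of the series: 2 Tet3-/- samples that received Dnmt1 and 2 Tet3-/- samples that received the empty vector (EV). The samples were chosen by their genotype and vector, and 18055 of the 18091 genes in their table were tested, namely those with a mean value of at least 10 normalised read counts over the 12 samples of the experiment. The series asks what TET3 does in neuroectoderm (NE) with and without its enzyme activity, and this comparison asks whether more Dnmt1 changes the genes that are raised or lowered without Tet3. All 12 samples were V6.5 male mouse embryonic stem cells (ESCs) of a mixed 129/C57BL/6 background. They were transfected as ESCs, deprived of LIF, given 1 µM retinoic acid (RA) for 72 h and selected with blasticidin for the last day before RNA was taken. Tet3-/- cells lack exon 4 of Tet3 after CRISPR/Cas9 editing, Tet3m/m cells carry substitutions in the iron-binding site of the enzyme, and Tet3+/+ cells are unedited. Either plasmid drives its insert from a CAG promoter with a blasticidin resistance gene behind it, and the Dnmt1 plasmid encodes a myc-tagged protein. Which clone was transfected, and whether the 2 samples of a group came from separate cultures, is not given in the sources used here. The p-values therefore measure only the spread between samples, estimated jointly over the 12 samples of all 3 genotypes.

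DNMT1 is the maintenance DNA methyltransferase: together with UHRF1 it copies CpG methylation onto the new strand after replication. The TET enzymes oxidise methylated cytosine and so open the way to its removal, and TET3 is the family member that appears as ESCs leave pluripotency. In differentiating ESCs, methylation is best known for keeping germline genes, imprinted alleles and parts of the pluripotency programme silent.

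The 4 samples held between 35239341 and 50845950 reads recovered from the normalised counts, within the 31155842 to 50845950 of all 12. The Dnmt1 pair differed more than the other pairs: the chi-square per gene between the Tet3-/- samples with Dnmt1 was 11.1, against 4.47 with the empty vector and 3.96 to 6.48 in the other groups. On the log2 scale the distance between the Dnmt1 samples was 68.6 and between the EV samples 62.6, while Dnmt1 replicate 1 lay 66.7 and 71.1 from the EV samples and Dnmt1 replicate 2 lay 77.2 and 82.3 from them. Dnmt1 replicate 2 therefore stood farther from the controls. The limma fit used below pools the spread of all 6 groups, so its SE can be too small for the wider Dnmt1 pair. Most named results that change without it are given with and without it. The NE label was set beside 10 neuroectoderm markers, of which 8 were above 100 normalised counts in each of the 4 samples and 0 were called. It was also set beside 6 RA markers, of which 6 were above that floor and 1 was called higher. Expression above such a floor cannot tell NE from other cell types. Median changes of whole chromosomes between vectors ran from -0.02 to 0.04 on the log2 scale. Between genotypes with the empty vector, genes of chromosome 8 had a median of -0.37 in Tet3-/- against Tet3+/+, while the medians of the other chromosomes ran from -0.05 to 0.07, and its part in the levels set beside Tet3+/+ was not tested.

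Dnmt1 itself was raised. It was at 17356 and 17554 normalised counts with the empty vector and at 33380 and 39854 with Dnmt1. The log2 fold change was 1.06 (SE 0.07, n = 2 and 2, spread pooled over the 12 samples, limma adjusted p 1.36e-09). With the 4 Tet3-/- samples alone in the fit the limma adjusted p was 0.000275. Both Dnmt1 samples were above both EV samples, and replicate 2 was the higher of them. Reads from the plasmid and from the endogenous gene could not be told apart in gene-level counts. In Tet3+/+ the same transfection moved Dnmt1 from a mean of 14952 to 23284 (0.64) and in Tet3m/m from 11609 to 21728 (0.90). The rise in Tet3-/- exceeded that in Tet3+/+ by 0.42 (limma adjusted p 0.00504) and that in Tet3m/m by 0.16 (0.275). With the empty vector, Dnmt1 was 0.22 higher in Tet3-/- than in Tet3+/+ (limma adjusted p 0.00647). In untransfected day 3 NE cells of the series the same difference was -0.17 (limma adjusted p 0.359). By RT-qPCR the study found Dnmt1 lower in Tet3-/- NE cells.

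**Figure D1:**
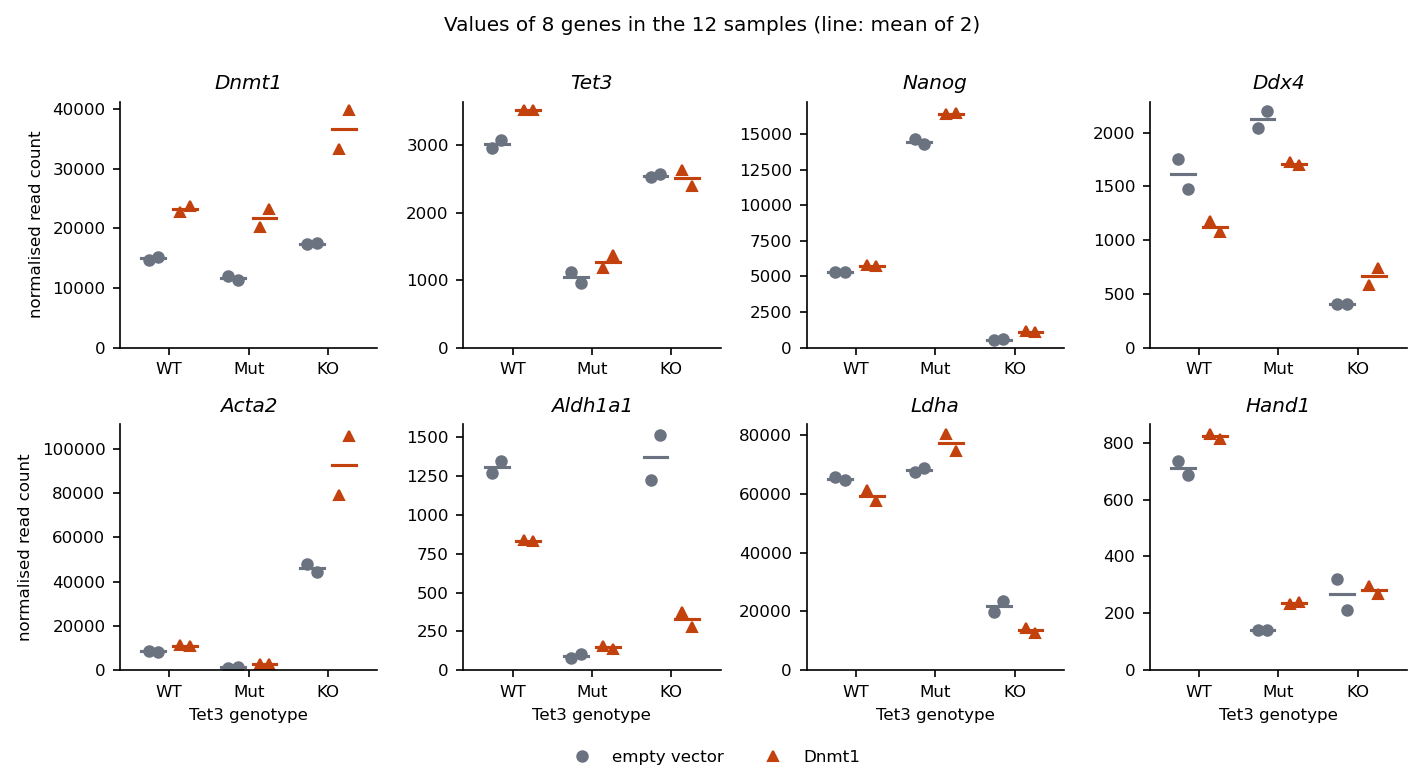
Normalised read counts (linear axes from 0) of 8 genes in the 12 samples of the experiment, by Tet3 genotype (WT, Tet3+/+; Mut, Tet3m/m; KO, Tet3-/-); grey circles are empty vector samples, orange triangles Dnmt1 samples and lines the mean of the 2 samples. In KO cells Dnmt1, Nanog, Ddx4 and Acta2 were higher with Dnmt1, Aldh1a1 and Ldha were lower, and the values of Tet3 and Hand1 overlapped.

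The gene that was knocked out could not be checked at this resolution. Tet3 was at 2520 and 2571 normalised counts with the empty vector and at 2632 and 2390 with Dnmt1 (log2 -0.02, SE 0.08, limma adjusted p 0.904), against a mean of 3016 in Tet3+/+ with the empty vector. The gene-level count does not resolve the deleted exon, and the vectors overlapped.

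Among 28 genes of the DNA methylation machinery, 2 were called in Tet3-/-, both higher. A gene is called here when its Benjamini-Hochberg adjusted p from limma is below 0.05 and its fold change is above 1.5, and 3.53% of all genes tested were called (2.51% higher, 1.02% lower). By the adjusted p alone 13.4% passed, and 26.3% had an unadjusted p below 0.05. These shares are the background for every list count below. With Dnmt1, 9393 of the 18055 genes had a higher mean and 8656 a lower mean. Besides Dnmt1 the called member was Dppa3, which shields the maternal genome from demethylation and binds UHRF1. Dppa3 stood at 50.3 and 48.7 with the empty vector and at 121 and 59.5 with Dnmt1 (0.77, SE 0.25, limma adjusted p 0.0438). Replicate 1 carried most of that rise, and the call was lost when any one of 11 of the 12 libraries was left out, with a log2 fold change from 0.26 without Dnmt1 replicate 1 to 1.28 without Dnmt1 replicate 2. The partner of DNMT1, Uhrf1, fell by 0.23 on the log2 scale (from 11061 and 11499 to 9954 and 9324, SE 0.04, limma adjusted p 0.00135), below the fold threshold. The de novo methyltransferase Dnmt3a was also lower by the adjusted p alone (-0.23, SE 0.05, 0.00445), as were Uhrf2 (-0.18, 0.0372) and the methyl-binding protein family member Mbd3 (-0.20, 0.00454). Gadd45g, a stress protein linked to active demethylation, was higher by the adjusted p alone (0.56, SE 0.08, 0.000121), and so was the methyl-CpG reader Zbtb38 (0.35, 0.00388). Dnmt3b (0.01), Tet1 (0.03) and Tet2 (0.07) each had an adjusted p above 0.6. The de novo cofactor Dnmt3l was at 1406 and 1679 with the empty vector and 1906 and 1582 with Dnmt1 (0.18, 0.139).

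Across all genes tested, Dnmt1 changed 638 genes in Tet3-/-, of which 453 rose and 185 fell (71.0% higher). In all 638 the 2 Dnmt1 values lay outside the range of the EV values, as they did for 52% of all genes tested (27.3% higher, 24.7% lower), and 260 changed by more than 2-fold. The median log2 fold change of all genes was 0.01. In Tet3+/+ the same plasmid changed 212 genes (76 rose and 136 fell, 0.421% and 0.753% of genes tested, 1.17% in all) and in Tet3m/m 444 (321 rose and 123 fell, 1.78% and 0.681%, 2.46% in all). The knockout count depended on single libraries: it was 356 without Dnmt1 replicate 2, 1027 without Dnmt1 replicate 1 and 413 without EV replicate 2. Without Dnmt1 replicate 1 the share that rose was 56.9%, and with the 4 Tet3-/- samples alone in the fit 335 genes were called.

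**Figure D2:**
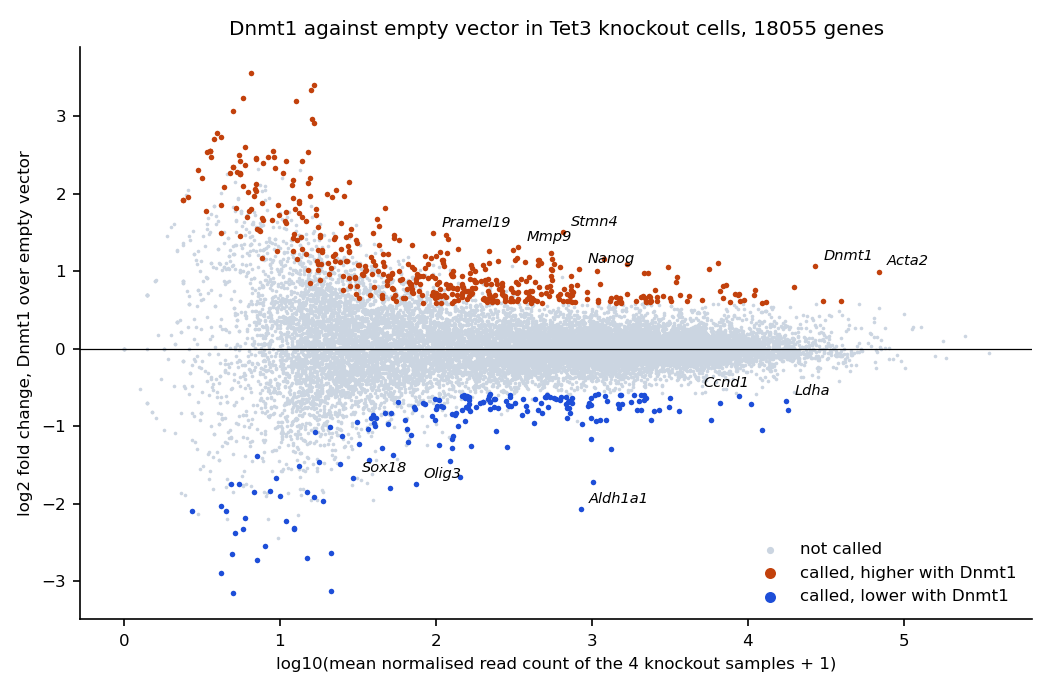
Log2 fold change of Dnmt1 over empty vector in Tet3-/- cells (vertical axis) against the log10 of the mean normalised read count of the 4 samples plus 1 (horizontal axis), 1 point per gene for 18055 genes. Orange points are the 453 called genes that rose and blue points the 185 that fell; the largest fold changes belong to genes with few reads, while Dnmt1, Acta2 and Ldha were called at high levels.

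The 12 largest falls among called genes with a mean of at least 50 and no overlap between vectors were led by Aldh1a1, a retinaldehyde dehydrogenase that makes RA. It was at 1228 and 1514 with the empty vector and 375 and 281 with Dnmt1 (-2.07, SE 0.15, limma adjusted p 1.26e-08). Its neighbour in sequence, Aldh1a7, went from 1440 and 1673 to 527 and 424 (-1.71, SE 0.18, 2.31e-06). Both Dnmt1 samples were far below both EV samples for either gene, and the close similarity of these paralogs makes the split of reads between them uncertain. Olig3, a transcription factor of dorsal neural progenitors, went from 114 and 99.5 to 65.9 and 14.3 (-1.75, SE 0.37, 0.00313). Its 2 Dnmt1 samples were far apart: the log2 fold change was -0.68 without Dnmt1 replicate 2 and -2.81 without Dnmt1 replicate 1, and the call was lost with DESeq2 and with the 4 Tet3-/- samples alone. The secreted factor Ndnf followed (205 and 226 to 77.2 and 59.5, -1.65). The others were the protease Adamts18 (-1.45), AW551984 (-1.37), the guidance cue Sema3d (1768 and 1977 to 838 and 699, -1.29), the neuronal endosomal protein Nsg2 (-1.28), Bnc1 (-1.27), the teneurin Tenm2 (-1.25), Shisa6 (-1.25) and the prostaglandin dehydrogenase Hpgd (-1.21). The calls of Adamts18 and AW551984 were lost without Dnmt1 replicate 2 or without EV replicate 2, and that of AW551984 also without EV replicate 1. Tenm2 lost its call when any 1 of the 4 Tet3-/- libraries was left out and with a pseudocount of 0.1. Hpgd lost its call in 10 of 21 alternatives, among them some that left out libraries of other genotypes. The call of Nsg2 was lost without Dnmt1 replicate 2, with DESeq2 and with the 4 Tet3-/- samples alone.

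The 12 largest rises under the same rule began with the neuronal stathmin Stmn4, at 340 and 321 with the empty vector and 731 and 1209 with Dnmt1 (1.51, SE 0.48, limma adjusted p 0.0433). Its SE is wide, and the call was lost without Dnmt1 replicate 2 and without either EV replicate. Pramel19, of a gene family active in early embryos and germ cells, rose from 41.4 and 59.2 to 148 and 134 (1.49, SE 0.15, 2.08e-06). The predicted gene Gm6494 (1.34) and the pseudogene Zscan4-ps3 (1.26) were also in the set. The interferon-induced Ifit1 (1.47) and guanylate-binding Gbp3 (1.28), the forkhead factor Foxf2 (1.43), the caveolar protein Cav1 (1.41), the MHC class Ib gene H2-M5 (1.40), the gelatinase Mmp9 (1.31), the synaptic pentraxin Nptx2 (1.28) and Glipr1 (1.46) made up the rest. The call of Cav1 was lost when any 1 of the 4 Tet3-/- libraries was left out, with a pseudocount of 0.1 and under the replicate block. Ifit1 lost its call without either EV replicate and without Dnmt1 replicate 2, Foxf2 without EV replicate 2 or Dnmt1 replicate 2, and Glipr1 without EV replicate 2. With the 4 Tet3-/- samples alone Foxf2, Glipr1 and H2-M5 were not called.

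Of 24 pluripotency genes, 10 rose (41.7%, against 2.51% of all genes tested), 0 fell and 20 had a higher mean with Dnmt1. The median log2 fold change was 0.44 against 0.01 for all genes tested. When any 1 of the 12 libraries was left out, the number that rose was 8 to 11. Nanog, a core pluripotency factor, was at 526 and 567 normalised counts with the empty vector and at 1134 and 1092 with Dnmt1 (1.03, SE 0.05, limma adjusted p 9.52e-11). Pou5f1, which encodes OCT4, went from 567 and 577 to 947 and 902 (0.69, SE 0.05, 3.92e-08). Dppa2, a chromatin factor of ESCs and germ cells, went from 369 and 364 to 806 and 759 (1.09, SE 0.06, 9.09e-10), and the ESC RNA-binding protein Dppa5a from 1693 and 1897 to 2866 and 2889 (0.68, SE 0.05, 1.75e-08). In each of these genes both Dnmt1 samples were above both EV samples and the Dnmt1 samples differed little from each other. Zfp42 (0.60), Esrrb (0.60), Klf2 (0.64), Fgf4 (0.90), Gdf3 (0.84) and Nr0b1 (1.00) also rose. The levels stayed far below those of the other genotypes: with the empty vector Nanog averaged 5280.5 in Tet3+/+ and 14469.9 in Tet3m/m. With the empty vector Dppa2 was -2.70 and Dppa5a -3.19 in Tet3-/- against Tet3+/+ on the log2 scale. In untransfected day 3 cells of the series these differences were 0.37 (limma adjusted p 0.540) and -0.54 (0.396). The cause of that contrast was not tested. The summed level of the 24 members was 39948 and 42271 with the empty vector and 46449.8 and 44020.3 with Dnmt1. More cells of a pluripotent state and more of these RNAs per cell cannot be told apart in bulk samples, here or in the groups that follow.

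The Zscan4 family, known from cells of the early embryo, was chosen after its values were seen: all 9 of its genes that were tested rose, by 0.68 to 1.26 on the log2 scale. Zscan4-ps3 was at 141 and 117 with the empty vector and 317 and 305 with Dnmt1 (SE 0.09, limma adjusted p 1.75e-08). The members are near-identical copies, so counts of single members are uncertain. Fbxo15, a pluripotency-associated F-box gene, went from 313 and 292 to 647 and 651 (1.10, SE 0.06, 4.15e-10).

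Of 34 tested germline genes of a list known for silencing by promoter methylation, 10 rose (29.4%) and 0 fell, where 2.51% of all genes tested rose. The median was 0.36, and 11 were higher when the adjusted p alone was asked for. Ddx4, the germ cell RNA helicase also called Vasa, was at 408 and 407 with the empty vector and at 579.7 and 744 with Dnmt1 (0.69, SE 0.10, limma adjusted p 9.14e-05). Meioc, needed for meiotic prophase, went from 597 and 535 to 757 and 991 (0.62, SE 0.11, 0.000938). Without Dnmt1 replicate 2 the log2 fold change was 0.51 for Ddx4 and 0.42 for Meioc, both under the fold threshold. Taf7l, a germ cell subunit of the general transcription factor TFIID, went from 45.5 and 38.1 to 80.4 and 76.2 (0.89, SE 0.17, 0.000976), and the testis tubulin Tuba3a from 119 and 104 to 175 and 188 (0.71, SE 0.12, 0.000493). Dazl (0.69), Mael (0.64), Sycp2 (1.47), Hormad1 (1.63), Brdt (0.70) and Tdrd12 (0.68) were the others that rose. Without EV replicate 2 the number that rose was 6 and without Dnmt1 replicate 2 it was 5, and with the 4 Tet3-/- samples alone in the fit it was 2, with Taf7l and Tuba3a among those lost. In the other genotypes the median of the list was -0.52 in Tet3+/+, where 5 fell, and -0.36 in Tet3m/m, where 1 fell. With the empty vector the list had a median of -1.73 in Tet3-/- against Tet3+/+, and with Dnmt1 in both genotypes -0.85. For Ddx4 these values were -1.98 and -0.77, while in untransfected day 3 cells it was 0.37 (limma adjusted p 0.433). The difference of the Dnmt1 effect between Tet3-/- and Tet3+/+ was called for 14 of the 34, against 3.99% of all genes tested.

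The 250 bases before the start site of germline and pluripotency genes named above are shown with each CpG, the dinucleotide that DNMT1 methylates, in capitals. They come from RefSeq windows of the GRCm38.p6 build, the first window listed for each gene, and are written 5′ to 3′ on the strand of the gene. Ddx4 lies at chr13:112652311-112652560 on the minus strand and Meioc at chr11:102665335-102665584 on the plus strand. Nanog lies at chr6:122707239-122707488 and Pou5f1 at chr17:35505782-35506031, both on the plus strand.
Ddx4: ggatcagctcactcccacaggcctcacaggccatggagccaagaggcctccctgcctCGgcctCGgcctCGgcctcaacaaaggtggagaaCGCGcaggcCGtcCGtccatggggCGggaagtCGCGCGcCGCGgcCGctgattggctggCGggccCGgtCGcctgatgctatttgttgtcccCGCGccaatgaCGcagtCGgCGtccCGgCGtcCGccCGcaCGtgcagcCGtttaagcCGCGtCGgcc
Meioc: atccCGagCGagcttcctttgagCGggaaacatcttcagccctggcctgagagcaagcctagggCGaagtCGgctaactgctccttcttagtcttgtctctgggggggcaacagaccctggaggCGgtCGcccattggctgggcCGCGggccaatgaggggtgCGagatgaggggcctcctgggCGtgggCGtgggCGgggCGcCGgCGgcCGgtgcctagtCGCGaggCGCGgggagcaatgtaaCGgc
Nanog: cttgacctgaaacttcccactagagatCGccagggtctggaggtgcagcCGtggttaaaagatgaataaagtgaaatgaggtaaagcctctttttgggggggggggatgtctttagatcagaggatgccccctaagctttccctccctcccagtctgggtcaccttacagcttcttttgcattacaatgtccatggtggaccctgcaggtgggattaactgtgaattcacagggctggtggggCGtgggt
Pou5f1: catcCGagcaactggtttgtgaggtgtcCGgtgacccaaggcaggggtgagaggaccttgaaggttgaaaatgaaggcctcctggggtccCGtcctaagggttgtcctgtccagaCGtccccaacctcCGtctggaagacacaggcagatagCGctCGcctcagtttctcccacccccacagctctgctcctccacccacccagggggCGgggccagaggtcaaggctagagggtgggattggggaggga
The letters CG were counted once per site, since the opposite strand reads the same. Ddx4 held 31 CpGs and Meioc 22, counts reached by 4.93% and 14.6% of the 27025 windows of the table. Pou5f1 held 8 and Nanog 3, counts reached by 43.4% and 70.4% of windows. Taf7l held 14 and Tuba3a 8. Of all windows 91.7% held at least 1 CpG and the median was 6. No methylation was measured in the Dnmt1 samples analysed here. A comparison of CpG content over all genes was void, because 69.5% of the genes tested had a window, under the 80% needed.

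Of 30 cardiac and muscle genes tested, 11 rose, 1 fell and 28 had a higher mean with Dnmt1 (median 0.38). Among all genes tested 2.51% rose, 1.02% fell and 9393 of 18055 had a higher mean. Acta2, smooth muscle actin, was at 47864 and 44240.2 normalised counts with the empty vector and at 79137 and 106048 with Dnmt1 (0.99, SE 0.10, limma adjusted p 2.52e-06). Csrp1, an actin-bundling LIM protein, went from 15193 and 13809 to 21920.0 and 28861 (0.80, SE 0.08, 1.7e-06), the tropomyosin Tpm2 from 6884 and 6466 to 9778 and 12112 (0.71, SE 0.08, 3.02e-06), and the myosin light chain Myl9 from 5114 and 4923 to 7748 and 9953 (0.81, SE 0.09, 4.69e-06). In these genes both Dnmt1 samples were above both EV samples and replicate 2 was the higher. Actc1, Acta1, Tagln, Cnn1, Tnnt1, Jph2 and Ttn also rose. The member that fell was Hrc, a calcium-binding protein of the muscle reticulum, from 335 and 295 to 191 and 177 (-0.77, SE 0.20, 0.0115). Without EV replicate 2 or without Dnmt1 replicate 2, 7 members rose. Hrc lost its call without EV replicate 1 and without Dnmt1 replicate 2, and Tpm2 without Dnmt1 replicate 2. With Dnmt1 in the other genotypes, 6 members of this list rose in Tet3m/m and 0 in Tet3+/+.

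Vascular genes had the highest median of the lists, 0.49, with 6 of 22 members higher and 2 lower. In all 36.4% were called, against 3.53% of all genes tested. Eng, a co-receptor of TGF-beta on endothelium, went from 585 and 577 to 939.9 and 1126 (0.82, SE 0.09, limma adjusted p 2.08e-06). Mcam, an adhesion molecule of vessels and mesenchyme, went from 2972 and 2614 to 3860.1 and 5281 (0.70, SE 0.11, 0.000212), and the junction protein Pecam1 from 151 and 167 to 259.7 and 240.4 (0.65, 7.83e-05). Cav1 (71.5 and 57.1 to 149.5 and 196), whose call was lost when any 1 of the 4 libraries was left out, Sox7 and Plvap rose as well, while Sox18 (41.4 and 46.6 to 16.1 and 10.7, -1.67) and Cd34 fell. The endothelial members thus did not move in 1 direction. The call of Mcam was lost without Dnmt1 replicate 2 and that of Pecam1 without EV replicate 1, and without EV replicate 2 the number that fell was 1.

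Early mesoderm genes were split. Of 28 tested, 4 rose and 3 fell, with a median of 0.06. The genes that rose act in or around the primitive streak: the T-box factor Eomes went from 52.8 and 59.2 to 119.8 and 121 (1.09, SE 0.13, limma adjusted p 1.08e-05), the Nodal antagonist Lefty2 from 84.4 and 93.1 to 156 and 159 (0.82), Nodal from 534 and 497 to 734 and 846 (0.61), and Wnt3 from 373 and 359 to 616 and 882 (1.01). Those that fell were Twist1, a factor of mesenchyme and neural crest, from 2551 and 2696 to 1697 and 1357 (-0.79, SE 0.09, 3.45e-06), Hand2 (-0.68) and Bmp4 (-0.60). Without Dnmt1 replicate 2 the number that fell was 1, and the call of Nodal was lost without it and without EV replicate 2. Hand1, a factor of lateral and extra-embryonic mesoderm, was at 322 and 211 with the empty vector and 296 and 267 with Dnmt1 (0.11, SE 0.15, 0.724). Its Dnmt1 values lay within the EV range, and all 4 were below the mean of 711 in Tet3+/+ with the empty vector.

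Of 31 genes of the retinoic acid response, 3 rose and 3 fell (19.4% called, against 3.53% of all genes tested), with a median of -0.03. All 3 that rose encode RA hydroxylases: Cyp26a1 went from 5809.6 and 4675 to 8634 and 9887 (0.83, SE 0.08, limma adjusted p 7.87e-07), Cyp26b1 rose by 0.74 and Cyp26c1 by 0.90. Those that fell were Aldh1a2, the main embryonic enzyme of RA synthesis, from 1336 and 1383 to 736 and 496 (-1.17, SE 0.15, 1.73e-05), the cellular RA-binding protein Crabp1 from 1382 and 1566 to 972 and 622 (-0.92, SE 0.13, 6.77e-05), and Hoxd1 (-0.60). In each the vectors did not overlap. Stra8, an RA target of germ cells, was at 7935 and 7031 with the empty vector and 11077 and 11204 with Dnmt1 (0.58, 1.06e-05), just below the fold threshold.

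Of 27 neural progenitor genes limma called 0, edgeR and DESeq2 1 each, and 16 had an unadjusted p below 0.05. By the limma adjusted p alone 7 were lower and 2 higher, and the median was -0.26. Sox1, an early neural factor, was at 349 and 390.4 with the empty vector and 325 and 249.9 with Dnmt1 (-0.37, SE 0.11, limma adjusted p 0.024). Zic2 was lower (929.7 and 944 to 696 and 632, -0.50, 0.000175) and the intermediate filament Nes higher (12451 and 11862 to 15014 and 17230.4, 0.40, 0.000186), both by the adjusted p alone. Of 31 neurogenesis and Notch genes, 1 rose and 2 fell, or 5 fell without Dnmt1 replicate 1. In all 9.68% of this list were called, against 3.53% of all genes tested. Tubb3, the neuronal tubulin, rose by 0.60, the Notch ligand Dll1 went from 308 and 405 to 296 and 155 (-0.72, SE 0.20, 0.0192) and the Notch target Hey1 from 199.7 and 220.1 to 130.3 and 111 (-0.80, 0.00194). The values of Dll1 in Dnmt1 replicate 1 and EV replicate 1 were close, and the calls of Dll1 and Tubb3 were lost without Dnmt1 replicate 2 and without EV replicate 2. For Dll1 the log2 fold change ran from -1.19 without Dnmt1 replicate 1 to -0.25 without Dnmt1 replicate 2, and the call was also lost with DESeq2 and with the 4 Tet3-/- samples alone. Neurog2, at 35.7 and 27.5 against 46.6 and 26.2, and Hes5, at 59.3 and 52.9 against 54.7 and 22.6, were not called and overlapped.

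**Figure D3:**
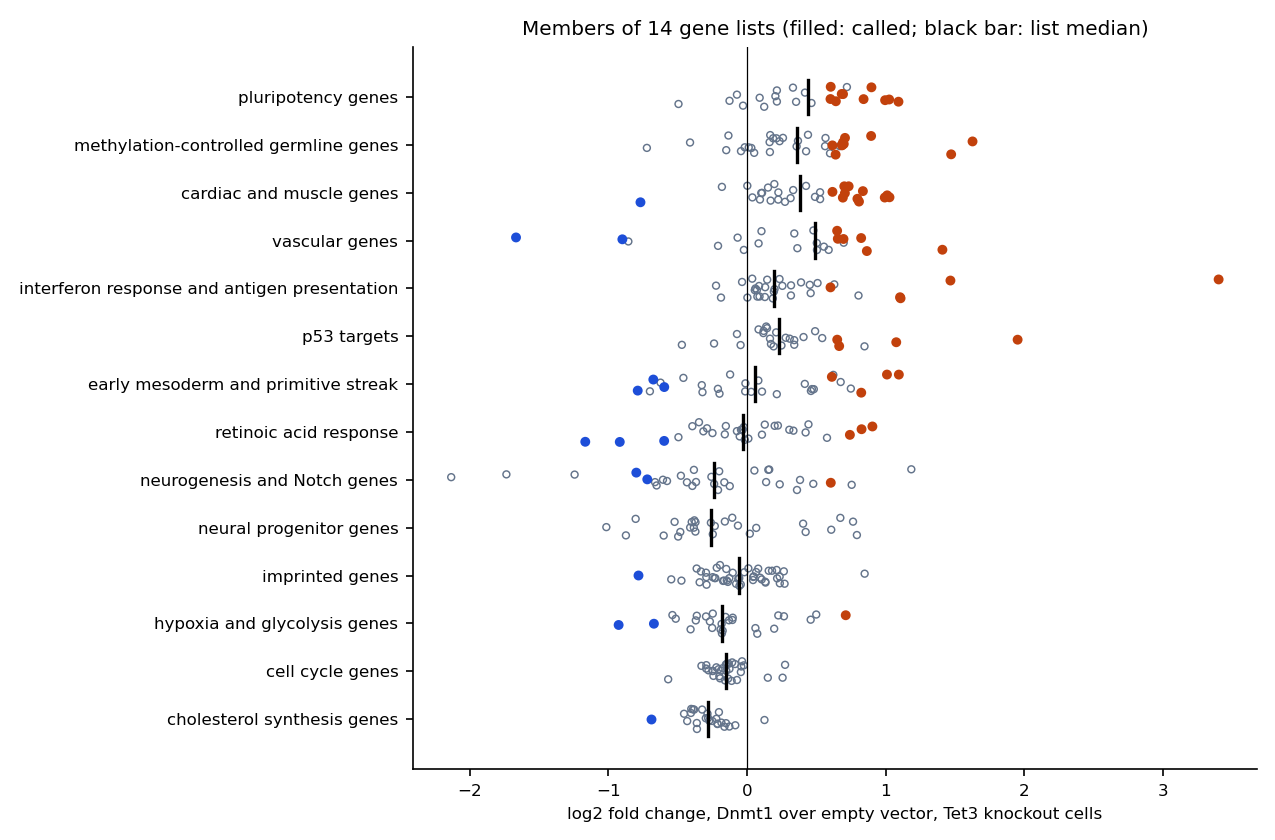
Log2 fold change of Dnmt1 over empty vector in Tet3-/- cells (horizontal axis) for each tested member of 14 gene lists (rows); filled points were called (orange higher, blue lower), open points were not, and black bars are list medians. Pluripotency, germline, muscle and vascular genes had medians between 0.36 and 0.49, and cholesterol synthesis genes a median of -0.28.

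Of 25 cholesterol synthesis genes, 24 had a lower mean and 20 of those had an adjusted p below 0.05. Among all 18055 genes tested 8656 had a lower mean, and 13.4% had an adjusted p below 0.05 in either direction. The thiolase Acat2 was at 5983 and 6139.6 with the empty vector against 4884 and 4379 with Dnmt1 (-0.39, limma adjusted p 4.54e-05), and Insig1, a sterol sensor, at 4907 and 4634 against 3718 and 3256 (-0.45, 2.07e-05). The list median was -0.28. Of 32 cell cycle genes 29 had a lower mean, 16 with an adjusted p below 0.05. With the fold threshold limma, edgeR and DESeq2 called 0 of them, while 22 had an unadjusted limma p below 0.05. The median was -0.15, and the G2/M genes Ccnb1 (-0.24), Top2a (-0.28) and Aurkb (-0.33) had adjusted p values of 0.000694, 0.00023 and 9.14e-05. Ccnd1, the G1 cyclin D1, went from 5282 and 5763 to 3893 and 3551 (-0.57, SE 0.06, 4.39e-06), just under the fold threshold.

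Of 27 genes of glycolysis and the hypoxia response 2 fell and 1 rose (11.1% called, against 3.53% of all genes tested). When the adjusted p alone was asked for 12 were lower (median -0.18). Ldha, lactate dehydrogenase A, was at 19786 and 23566 with the empty vector and 14416 and 12739 with Dnmt1 (-0.67, SE 0.06, limma adjusted p 8.01e-07), and the mitophagy receptor Bnip3 went from 1254 and 1517 to 809.6 and 649.8 (-0.93, SE 0.09, 6.5e-07). The kinase Pdk1 (-0.54) and phosphofructokinase Pfkl (-0.51) were lower by the adjusted p alone. The Dnmt1 samples were below the EV samples in all of these. With the empty vector, Tet3+/+ cells averaged 65274 for Ldha and 5167 for Bnip3. Without EV replicate 2 or without Dnmt1 replicate 2 the call of Ldha was lost and 1 member fell, while 4 fell without EV replicate 1 or without Dnmt1 replicate 1.

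Of 26 p53 targets 4 rose (Pmaip1, Fas, Trp73 and Sfn), 15.4% against 2.51% of all genes tested. When the adjusted p alone was asked for 15 were higher, and the median was 0.23. The BH3-only gene Pmaip1 went from 1858 and 1772 to 2631 and 3145 (0.66, SE 0.07, limma adjusted p 4.04e-06), Sfn, a 14-3-3 protein, from 5556 and 5218 to 7424 and 9623 (0.65, 3.5e-05), and the p53 inhibitor Mdm2 from 11006 and 10834 to 14271 and 16503 (0.49, 3.49e-06). Without Dnmt1 replicate 2 none of the 4 was called by limma, and without Dnmt1 replicate 1 the number that rose was 7. The kinase inhibitor Cdkn1a was higher by the adjusted p alone (10862 and 10643 to 12478 and 14850.4, 0.34, 0.000844). Of 32 interferon response and antigen presentation genes 5 rose (15.6%) and 29 had a higher mean. Ifit1 went from 56.8 and 65.6 to 178 and 163 (SE 0.38, 0.0135), Cxcl10 from 156 and 119.6 to 249 and 349.9 (1.11) and Gbp2 from 1296 and 1163 to 1712 and 2029 (0.60). Oasl1 was at 6.50 and 0 with the empty vector and 27.3 and 28.6 with Dnmt1. Without EV replicate 2 the number that rose was 2 and without Dnmt1 replicate 2 it was 1. Of 28 genes of the integrated stress response 1 was called (3.57%, against 3.53% of all genes tested). It was Atf3 (2231 and 2132 to 3322 and 3696, 0.68, 1.8e-05).

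Imprinted genes are expressed from one parental allele through methylation that DNMT1 maintains. Of 46 tested 1 was called (2.17%, against 3.53% of all genes tested). By the adjusted p alone 12 were lower and 5 higher, and the median was -0.06. The called gene was Dlk1, a paternally expressed Notch ligand relative, at 22849 and 23034 with the empty vector and 13452 and 13159 with Dnmt1 (-0.79, SE 0.06, limma adjusted p 1.26e-08). The Dnmt1 samples agreed closely and were far below the EV samples. H19 (24122 and 25344 to 19593 and 18845, -0.36, 2.07e-05), Mest (-0.34) and Usp29 (-0.55) were lower by the adjusted p alone.

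Of 32 Wnt pathway genes 2 rose (Wnt3 and Wnt10b) and 3 fell, so 15.6% were called, against 3.53% of all genes tested. Notum, a secreted Wnt deacylase, went from 1119.7 and 1163 to 711 and 475 (-0.97, SE 0.14, limma adjusted p 5.92e-05), the Wnt antagonist Sfrp1 from 8337 and 8213 to 5559 and 4636 (-0.70, SE 0.06, 3.35e-07) and Rspo3 by -0.62. Axin2, a common readout of the pathway, was at 3291 and 3381 against 3048 and 2893 (-0.17, 0.161). Without EV replicate 1, 5 fell, and without Dnmt1 replicate 2 the call of Sfrp1 was lost. Of 29 collagen and matrix genes 2 rose, the crosslinking enzyme Lox (291 and 269.8 to 548 and 695) and the basement membrane protein Nid1 (7057 and 6953 to 9662 and 11961), and 1 fell, Col1a2, from 7535 and 7663 to 4027 and 4015 (-0.92, SE 0.05, 4.15e-10). In all 10.3% of the matrix list were called, against 3.53% of all genes tested. Without Dnmt1 replicate 2, Nid1 lost its call.

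Markers of other cells were called at 16.7% for feeder fibroblast, 3.45% for endoderm and 6.25% for trophoblast and simple epithelial genes. The share among all genes tested was 3.53%. Of 18 feeder fibroblast genes 1 rose (Lox) and 2 fell (Col1a2 and Dcn), and their summed level was 66477 and 65982 with the empty vector and 61771 and 76026 with Dnmt1. Of 29 endoderm genes 1 was called, Apoa1, at 3.25 and 0 against 4.82 and 4.76. Apoa1 passed the filter on low values through the other genotypes, and limma called 0 endoderm genes higher with a pseudocount of 5, with the 4 Tet3-/- samples alone and in 10 of the 12 fits that left out 1 library, as did edgeR and DESeq2, while 3 were called without Dnmt1 replicate 2. By the adjusted p alone 6 endoderm genes were higher and 2 lower, with a median of 0.05 over the list. Sox17 (-0.40) and Foxa2 (-0.45) were lower. Of 16 trophoblast and simple epithelial genes 1 was called, Eomes. By the adjusted p alone 3 of the 16 were higher and 1 was lower. The keratins Krt8 (0.35) and Krt18 (0.39) were higher. The part of such other cells in the other results was not tested.

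Among 23 genes that the study follows by name, 3 rose (Dnmt1, Mcam and Myl9) and 1 fell (Hrc). In all 17.4% were called, against 3.53% of all genes tested. The study chose these genes on its own samples, so their count is not independent evidence of a direction. Gata6, an endoderm and cardiac factor, was at 2918 and 2533 with the empty vector and 3195 and 3620.1 with Dnmt1 (0.32, limma adjusted p 0.00284) and Bin1, a membrane-bending protein of muscle, at 4303 and 4126 against 4625 and 5611 (0.27, 0.0177), both higher by the adjusted p alone. Cdkn2a (0.26, 0.0359) was likewise higher, while Cdkn2b (0.27, 0.102), Sox5 (-0.52, 0.16), Sfrp4 (0.44, 0.68), Wnt10a (0.05, 0.974) and Pdik1l (0.00, 0.987) did not pass.

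The response differed between genotypes by a test of the difference itself. The Dnmt1 effect in Tet3-/- differed from that in Tet3+/+ for 721 genes (481 more positive and 240 more negative, 2.66% and 1.33% of genes tested) and from that in Tet3m/m for 972 genes (521 and 451, 2.89% and 2.5% of genes tested, 5.38% in all). Of the 638 genes that changed in Tet3-/-, 352 differed from Tet3+/+ and 376 from Tet3m/m, 283 from both. Because the 638 were chosen on the Tet3-/- contrast, which is part of both differences, a high share was built in. Without Tet3+/+ Dnmt1 replicate 1 the first count was 473. The pluripotency genes were among the clearest: Dppa2 changed by 1.09 in Tet3-/-, -0.14 in Tet3+/+ and 0.11 in Tet3m/m, and its effect exceeded that in Tet3+/+ by 1.24 (SE 0.09, limma adjusted p 5.98e-08). Fbxo15 exceeded Tet3+/+ by 1.26 (2.9e-08) and Zscan4-ps3 by 1.67 (9.83e-08). Ccnd1 went down in Tet3-/- and up elsewhere, by 0.71 in Tet3+/+ and 1.03 in Tet3m/m, a difference of -1.28 (SE 0.09, 2.9e-08) and -1.60 (2.61e-10). Dlk1 showed the same opposition, with 0.37 in Tet3+/+ and 0.30 in Tet3m/m (differences of -1.16 and -1.08). Against Tet3m/m the smallest p values belonged to matrix and signalling genes that were higher there with Dnmt1 and lower in Tet3-/-. Col1a2 changed by 0.65 in Tet3m/m (difference -1.57, 3.17e-11), the fibril-associated collagen Col14a1 by 2.58 (-3.47, 7.79e-11), the heparin-binding factor Ptn by 1.75 (-2.54, 7.79e-11) and the transcription cofactor Lbh by 1.38 (-1.80, 2.61e-10). In Tet3-/-, Ptn went from 3489.8 and 3394 to 2219 and 1777, Col14a1 from 1307 and 1273 to 681 and 713, and Lbh from 2062 and 2128 to 1568 and 1555. Not all rises were particular to Tet3-/-. Ifit1 rose by 1.64 in Tet3+/+ and 1.69 in Tet3m/m, with differences of -0.18 (limma adjusted p 0.897) and -0.22 (0.841). Acta2 rose by 1.06 in Tet3m/m (difference -0.07, 0.809) and changed by 0.36 in Tet3+/+ (difference 0.63, 0.00847).

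**Figure D4:**
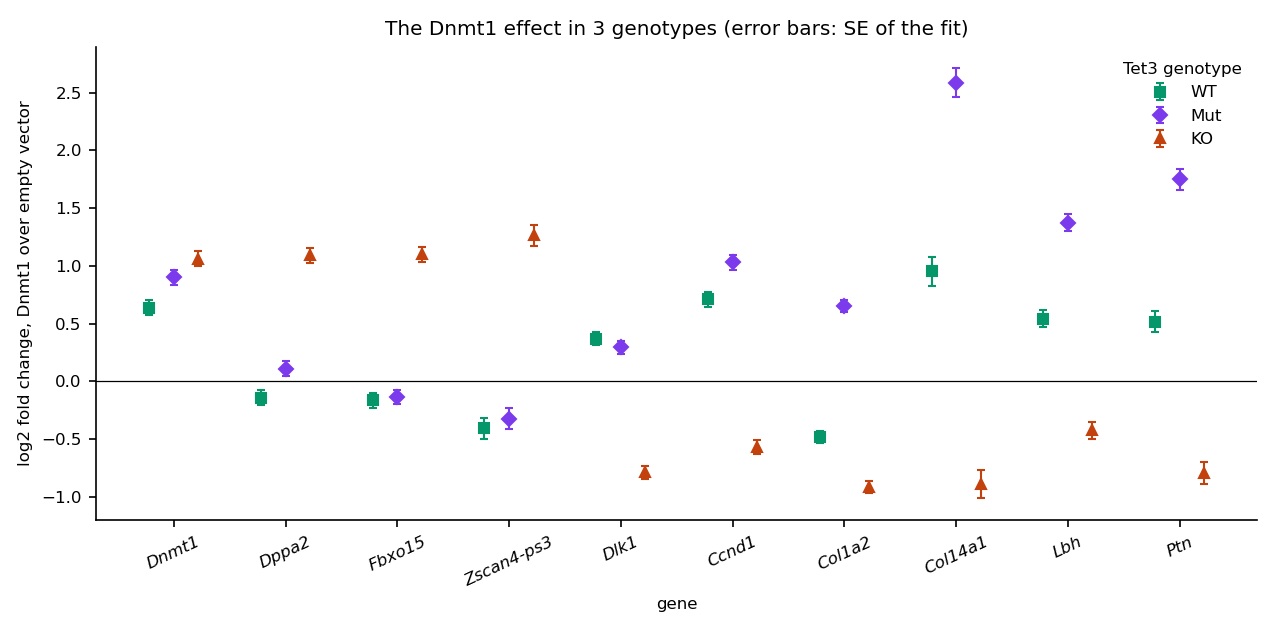
Log2 fold change of Dnmt1 over empty vector (vertical axis) in Tet3+/+ (WT, green squares), Tet3m/m (Mut, purple diamonds) and Tet3-/- (KO, orange triangles) for Dnmt1 and the 9 genes with the smallest p values for a difference from KO; error bars are the SE of the fit, 2 samples per group. Dppa2, Fbxo15 and Zscan4-ps3 were above 1 in KO only, and Ccnd1, Dlk1, Col14a1, Lbh and Ptn were below 0 in KO and above it in WT and Mut.

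Whether Dnmt1 moved the genes that differ without Tet3 was followed in lists from other samples, untransfected day 3 NE cells (3 Tet3+/+, 3 Tet3m/m and 2 Tet3-/-), which share no sample with this experiment. On day 3, limma called 82 genes higher and 33 lower in Tet3-/- than in Tet3+/+. DESeq2 on the recovered reads of the same samples called 613 and 303, and the medians with those lists were 0.40 and -0.30. Of the higher genes 81 were tested here, and 78 had a higher mean with Dnmt1 than with the empty vector, as did 9393 of all 18055 genes: 17 rose and 0 fell, with a median of 0.40, where 2.51% of all genes tested rose. Of the 33 lower genes 30 had a lower mean with Dnmt1, as did 8656 of all genes, 7 fell and 0 rose, with a median of -0.38. The direction on day 3 and the direction with Dnmt1 were thus mostly the same. With the empty vector the 81 genes had a median of 0.66 over Tet3+/+, and with Dnmt1 in both genotypes 0.98; for the 33 genes these medians were -0.26 and -0.78. These 2 comparisons share no sample with each other, though each shares samples with the Dnmt1 effect.

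Per sample, the median of the 81 genes relative to the EV mean was 0.31 in Dnmt1 replicate 1 and 0.52 in replicate 2, against 0.01 and -0.01 in the EV samples. Those with the smallest p values under Dnmt1 included genes of the cytoskeleton and matrix. Dmpk, the myotonic dystrophy kinase, went from 1463 and 1459 to 2651 and 3099 (0.97, SE 0.09, limma adjusted p 7.78e-07; 1.39 on day 3), the focal adhesion protein Tgfb1i1 from 2494 and 2364 to 4116 and 5136 (0.92, 2.08e-06; 1.71), and Mmp9 from 219 and 166 to 415 and 541 (1.31, 2.92e-06; 1.08). Pdlim7, a LIM protein of actin fibres, was higher but under the fold threshold (0.53, 2.08e-06). For the lower genes the median was -0.30 and -0.43 in the Dnmt1 samples. Mycn, a growth-promoting factor, went from 3779.7 and 4083 to 2449.8 and 2206 (-0.76, SE 0.06, 3.43e-08; -1.01 on day 3), Msx1, a homeobox factor, from 2667 and 2673 to 1673 and 1687 (-0.67, 9.84e-07) and the aldolase Aldoc from 434 and 507 to 333 and 236 (-0.74, 0.00037). Pde3b (-0.49, 4.22e-05) and Txnip (-0.40, 3.27e-05) were lower but under the threshold. Without Dnmt1 replicate 2, Aldoc lost its call.

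**Figure D5:**
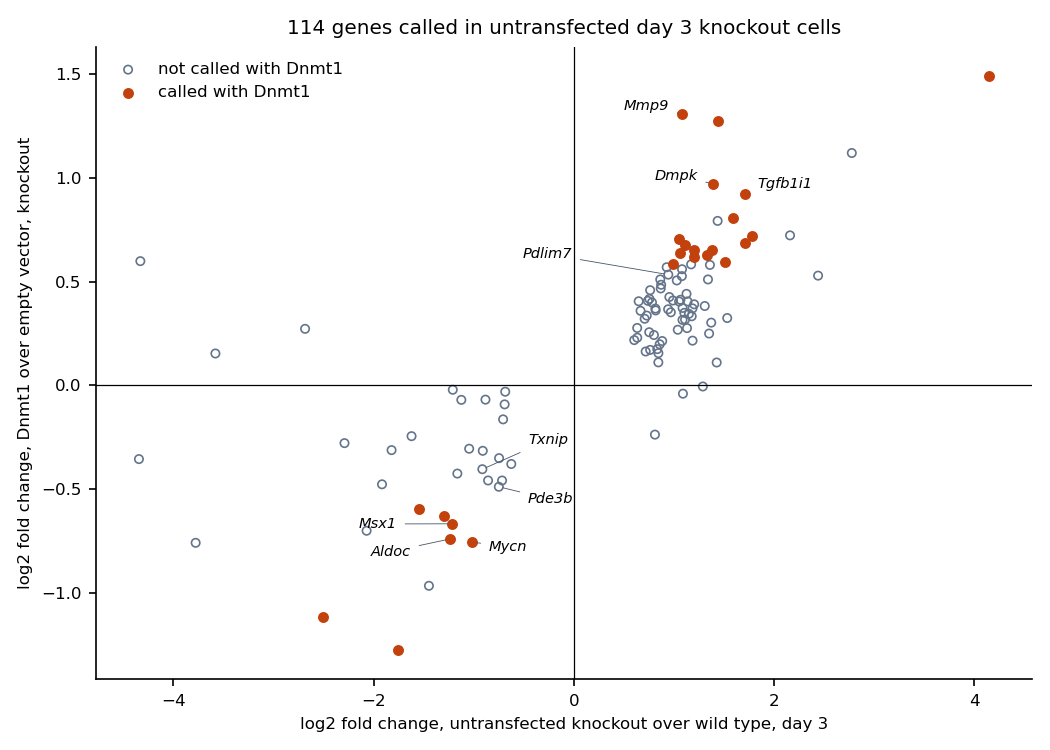
Log2 fold change of Dnmt1 over empty vector in Tet3-/- cells (vertical axis) against the log2 fold change of untransfected Tet3-/- over Tet3+/+ cells on day 3 (horizontal axis) for the 114 tested genes called on day 3; filled points were called with Dnmt1. The points lie mainly in the upper right (78 of 81) and lower left (30 of 33).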

How the data were processed

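RNA-seq was done on V6.5 mouse ESCs transfected with empty vector or myc-tagged Dnmt1 and differentiated for 72 h, with 2 samples for each of 3 genotypes and 2 vectors. Per the labels, the authors trimmed reads with Trim Galore 0.6.7, aligned them with STAR 2.7.9a, counted them per gene with featureCounts and divided the counts by DESeq2 size factors. The deposited values are thus a normalised count signal. The processing notes and the methods of the study name different mouse builds, so no coordinate was taken from the expression tables. Divided by the value of a single read, 100% of the deposited values came within 0.01 of an integer, and the integers were taken as reads for the alternatives that need counts.

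Values were tested as log2(value + 1) with limma 3.58.1 (R 4.3.3, trend on), with all 6 groups of the 12 samples in one fit and Benjamini-Hochberg adjustment over the 18055 genes with a mean of at least 10. A fold change on this scale understates the change of low genes. A gene was called at an adjusted p below 0.05 and a fold change above 1.5. Differences between genotypes were contrasts of the same fit. The day 3 lists came from the same test on 8 untransfected samples, with counts normalised by the authors in a separate table. The fit of the 12 samples was tested on simulated data with the same spread in every group. That test cannot speak for the wider Dnmt1 pair of Tet3-/-. The day 3 fit was not tested on simulated data. Named genes were the methylation machinery and the genes the study names, the 12 largest rises and falls at a mean of at least 50, up to 4 genes per list, 5 per difference between genotypes and 5 per day 3 list by smallest p. Results for some genes under this rule are not reported here. Other genes named were chosen after their values were seen. The gene lists, members and tests were chosen with earlier results of these data known. Alternatives were other pseudocounts (0.1 and 5), filters, edgeR 4.0.16 and DESeq2 1.42.0 on recovered reads, TMM rescaling, a replicate block, each library left out, and the 4 Tet3-/- samples alone. The 2 columns of Tet3+/+ with the empty vector carry the same heading, so they were used as unnumbered replicates. Other assays of the series were not used here.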

Additional observations from a re-analysis of the deposited data

Results flagged for a closer look

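The effect of Dnmt1 differed between Tet3-/- and Tet3+/+ for 721 genes and between Tet3-/- and Tet3m/m for 972 genes, by the test of the difference itself in the limma fit. The values that follow are the difference in log2 fold change, Tet3-/- minus the other genotype, for named genes that passed it.

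Among pluripotency genes and those of early embryos, the difference from Tet3+/+ was 0.90 for Nanog, 0.61 for Pou5f1, 1.24 for Dppa2, 1.26 for Fbxo15 and 1.67 for Zscan4-ps3. From Tet3m/m it was 0.84 for Nanog, 0.98 for Dppa2, 1.24 for Fbxo15 and 1.59 for Zscan4-ps3. Among germline genes it was 1.20 for Ddx4 and 1.71 for Taf7l from Tet3+/+, and 0.99 for Ddx4 and 1.30 for Taf7l from Tet3m/m. Ddx4 went from a mean of 1615 to 1124 with Dnmt1 in Tet3+/+, the opposite direction to Tet3-/-.

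In the retinoic acid pathway the difference from Tet3+/+ was -1.42 for Aldh1a1 and 1.11 for Cyp26a1, and from Tet3m/m -2.74 and 1.02. Sfrp1 differed by -0.87 from Tet3+/+ and by -0.90 from Tet3m/m. Mcam differed by 0.71 from Tet3+/+, and Ldha by -0.86 from Tet3m/m.

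For genes of growth and matrix, the difference from Tet3+/+ was -1.28 for Ccnd1, -1.16 for Dlk1, -1.84 for Col14a1, -0.97 for Lbh and -1.31 for Ptn. From Tet3m/m it was -1.60 for Ccnd1, -1.08 for Dlk1, -1.57 for Col1a2, -3.47 for Col14a1, -1.80 for Lbh and -2.54 for Ptn. Dnmt1 itself rose by different amounts in the 3 genotypes, and its part in these differences was not tested.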

How the results depend on the processing

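The 638 genes called in Tet3-/- became 2423 with no fold threshold (55.6% higher) and 335 with the 4 Tet3-/- samples alone in the fit. Leaving out 1 library gave 356 to 1027, the lowest without Dnmt1 replicate 2 and the highest without Dnmt1 replicate 1. The other alternatives gave 530 to 649, with 583 by edgeR and 534 by DESeq2. The difference from Tet3+/+ (721) became 1753 with no fold threshold and 473 to 1079 without 1 library. The difference from Tet3m/m (972) became 2572 with no fold threshold and 765 to 1274 without 1 library. Dnmt1 was called in all 21 alternatives, at 0.94 to 1.19. The median of the day 3 higher genes was 0.31 to 0.52 without 1 library, and that of the lower genes -0.44 to -0.30. The lower median was -0.22 with a list taken at an unadjusted p and -0.30 with a list called by DESeq2. The causes of these shifts were not tested.

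Of 77 named genes that were called, 43 were called in every alternative, 34 were lost in at least 1 and 0 reversed. With the 4 Tet3-/- samples alone Dppa3, Taf7l, Tuba3a, Oasl1, Dll1, Glipr1, Foxf2, H2-M5, Olig3 and Nsg2 were lost, with DESeq2 Dll1, Olig3 and Nsg2, and under the block Cav1 and Hpgd. Pdik1l, which was not called, reversed with edgeR (0.0013) and TMM rescaling (0.0051). Without 1 library the direction of these uncalled values turned: Tet3 ran from -0.0912 to 0.0479, Tet1 from -0.13 to 0.20, Tet2 from -0.0531 to 0.1999, Dnmt3b from -0.0346 to 0.0515, Wnt10a from -0.19 to 0.29, Neurog2 from -0.25 to 0.56, Pdik1l from -0.15 to 0.14, Sfrp4 from -0.20 to 1.07 and Hand1 from -0.20 to 0.41. The Hand1 difference from Tet3+/+ ran from -0.41 to 0.20.

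Leaving out a Tet3-/- library leaves 1 sample in that arm, which is assumed to vary like the other groups. With the replicate number as a block 628 genes were called in Tet3-/- (600 of them shared with the 638), 681 differed from Tet3+/+ and 945 from Tet3m/m. The numbers did not pair the samples: the deviations of same-numbered samples had a correlation of -0.025 in Tet3-/- and 0.004 in Tet3m/m across genes.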
